A study of Caenorhabditis elegans with 15 samples.

Results

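Sucrose-fed nematodes were set directly against stearic acid-fed nematodes, 3 libraries against 3, over every gene that passed a filter on low counts. The filter kept 12677 of the 16196 genes of the deposited table, and the 3 control libraries of the study did not enter the fit. All groups were whole wild-type Caenorhabditis elegans of the N2 strain, which the labels place at the L4 larval stage, the last before the adult. The sucrose group received sucrose at 400 mM. The stearic acid group received the saturated fatty acid stearic acid at 500 mg/ml as the labels write it. The study's methods give the same figure with the unit μg/mL. The control group received neither, and 2 further groups of the 5 in the study, which combined both nutrients without and with resveratrol, are not used here. Stearic acid was dissolved in ethanol, as was the cholesterol that the study added to its control medium, and the amount of ethanol in the medium of each group is not given in the sources used here. The comparison asks which genes tell a sugar-rich from a fat-rich diet.

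Nematodes regulate their water balance by making glycerol, which a dehydrogenase and a phosphatase derive from an intermediate of sugar breakdown, and they do so when the medium is salty or sugary. Dietary fat is taken up in the intestine, where fatty acids are desaturated, oxidized or packed with yolk proteins for export. The cuticle, the collagen coat of the animal, is rebuilt at every moult, and its collagen genes are switched on and off in waves within each larval stage. In RNA of whole animals, fewer cells of a type and less RNA per cell cannot be told apart.

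The libraries held between 19804102 and 20553815 counted fragments in the sucrose group and between 20622930 and 21400063 in the stearic acid group. The first principal component of the normalized values carried 66.37% of the variance and placed all sucrose libraries on the opposite side of all stearic acid libraries. The second component, with 13.11%, mainly parted sucrose library 1 from sucrose library 3. A gene was called differentially expressed (DEG) when it changed at least 2-fold with a p of at most 0.05 in edgeR's quasi-likelihood test after Benjamini-Hochberg adjustment over all genes tested. There were 1004 DEGs, 7.92% of the genes tested, of which 334 (2.63%) were higher and 670 (5.29%) lower in sucrose than in stearic acid. The median log2 fold change of all genes was 0.003, so the centre of the distribution lay near 0 while the called genes leaned to the lower side. With the adjusted p alone and no fold minimum, called at any fold below, 1396 of the 12677 genes tested were higher and 1688 lower in sucrose. At 4-fold or more, 60 genes were higher and 217 lower in sucrose, and at 16-fold or more 5 were higher and 22 lower. The libraries of the diets did not overlap in 330 of the 334 higher and 668 of the 670 lower DEGs, which follows largely from calling DEGs on the same values. Over all genes tested, 40.6% did not overlap, 19.7% with sucrose and 21% with stearic acid the higher. With 3 libraries a side, an exact permutation test of a single value cannot go below p = 0.1, so the p values given are those of the fitted model. The study calls the libraries of a group biological replicates, without saying how the cultures were separated, and the p values measure the spread between these libraries.

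**Figure D1:**
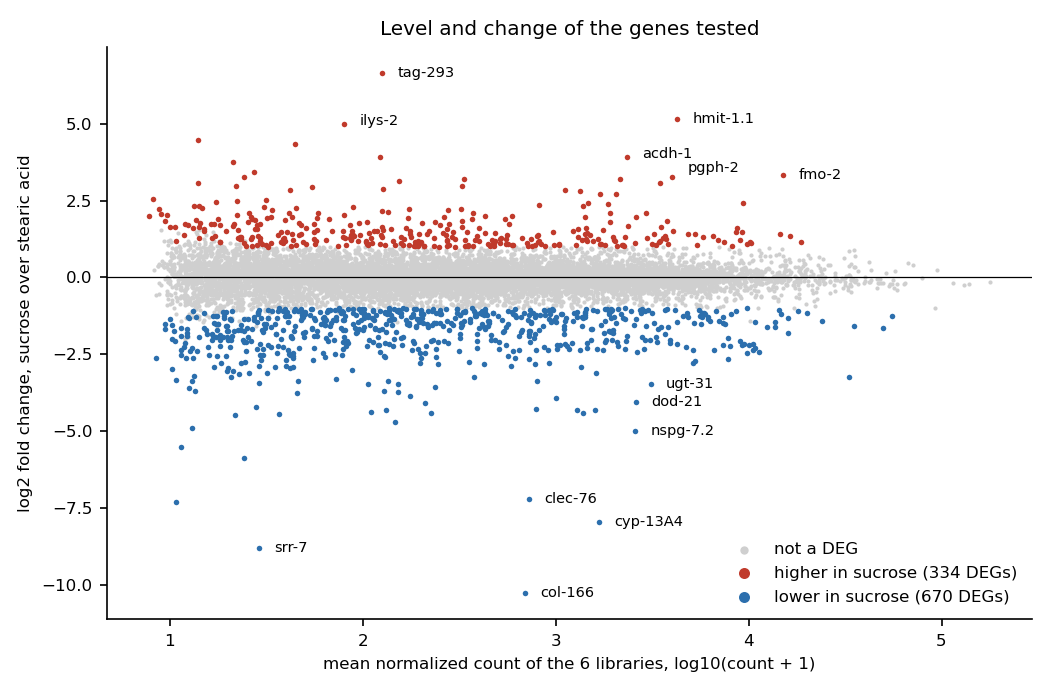
Log2 fold change of sucrose over stearic acid (vertical axis) against the mean normalized count of the 6 libraries on a log10 scale (horizontal axis), with each point a gene. Red points mark the 334 DEGs that were higher and blue points the 670 DEGs that were lower in sucrose, and the blue points reach further from 0.

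Among the genes higher in sucrose, the largest change belonged to tag-293, which encodes a protein with a ShK-like toxin domain. It had 21.3, 23.3 and 33.3 FPKM (fragment counts corrected for transcript length and library size) in the sucrose libraries, against 0.536, 0 and 0.224 FPKM in the stearic acid libraries. Its summed counts of 740 in sucrose and 7 in stearic acid gave a ratio of 106, with an exact 95% counting interval of 51.0 to 264, which covers counting error only. The fitted log2 fold change was 6.65 ± 0.45, and 7.80 without stearic acid library 1. The gene hmit-1.1, which encodes a transporter of myo-inositol, had 272, 277 and 330.3 FPKM in sucrose and 7.91, 8.64 and 8.10 FPKM in stearic acid. This was a log2 fold change of 5.14 ± 0.12 at an edgeR adjusted p of 1.1e-08, and both groups were tight. In control animals hmit-1.1 stood at 14.2, 14.9 and 14.5 FPKM, above stearic acid and far under sucrose.

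The invertebrate-type lysozyme gene ilys-2 had 39.1, 56.4 and 95.8 FPKM in sucrose and 1.24, 1.27 and 4.26 FPKM in stearic acid (5.01 ± 0.52, and 5.87 without stearic acid library 3). The sucrose libraries varied among themselves, and all stood well above the highest stearic acid library. The propionate-shunt gene acdh-1, an acyl-CoA dehydrogenase, had 144, 231 and 312 FPKM in sucrose, against 17.6, 12.5 and 17.7 FPKM in stearic acid and 1.55, 1.18 and 0.966 FPKM in control. Both diets thus lay above control, with sucrose the higher by 3.93 ± 0.28 on the log2 scale. The flavin monooxygenase gene fmo-2 had the same order, with 787, 1080.0 and 1525 FPKM in sucrose, 109, 116 and 129.5 FPKM in stearic acid and 11.2, 13.05 and 21.1 FPKM in control. Its log2 fold change of sucrose over stearic acid was 3.35 ± 0.22 (edgeR adjusted p = 7.3e-06). The gene pgph-2, which encodes a phosphatase that makes glycerol from glycerol 3-phosphate, had 306, 374 and 324 FPKM in sucrose and 36.4, 54.7 and 33.96 FPKM in stearic acid. The 12 largest in each direction were ranked only among named DEGs with at least 50 normalized counts on average in either diet and no overlap of libraries. Some genes outside this rule changed more, such as F14F8.8 at 3.76 with 37.7 normalized counts on average in sucrose. The remaining 6 of the 12 were F23D12.11, Y48E1B.8 (a sugar-nucleotide transferase domain), svct-1 (a permease domain), nas-3 (an astacin protease), col-95 (a cuticle collagen) and spp-17 (a saposin-like protein), with log2 fold changes of 4.34, 3.91, 3.20, 3.12, 3.07 and 2.99. The value of F23D12.11, with 10, 0 and 2 counts in stearic acid, was 6.24 without stearic acid library 1. Of these, spp-17 was the most abundant, with 1616, 1019 and 504 FPKM in sucrose and 156, 125 and 149 FPKM in stearic acid, and sucrose library 1 stood well above sucrose library 3.

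Among the genes lower in sucrose, cytochrome P450 gene cyp-13A4 had 0.859, 0.757 and 0.0385 FPKM in sucrose, against 131, 152 and 121 FPKM in stearic acid (-7.96 ± 0.39, edgeR adjusted p = 1.4e-06). Control libraries had 18.6, 41.01 and 31.9 FPKM, between the diets. The C-type lectin gene clec-76 had 0.532, 0.458 and 0.381 FPKM in sucrose and 63.5, 75.5 and 79.2 FPKM in stearic acid, a log2 fold change of -7.21 ± 0.20. The gene nspg-7.2, of a nematode-specific peptide family, had 24.8, 18.4 and 18.8 FPKM in sucrose and 644, 708 and 659.5 FPKM in stearic acid, and control animals, at 917, 826 and 542 FPKM, were on the stearic acid side. The insulin-like peptide gene ins-34 had 2.54, 1.72 and 1.81 FPKM in sucrose, against 27.1, 31.5 and 35.1 FPKM in stearic acid and 28.9, 28.6 and 59.8 FPKM in control. For srd-39, a chemoreceptor gene, the pattern across groups was different. Its level was 0.508, 0.815 and 1.04 FPKM in sucrose, 12.8, 17.1 and 17.97 FPKM in stearic acid and 0.286, 0.246 and 0 FPKM in control, so the stearic acid libraries alone stood high. The aspartyl protease gene asp-16 had 0.523, 0.447 and 0.836 FPKM in sucrose, 14.2, 15.1 and 16.2 FPKM in stearic acid and 3.40, 2.64 and 1.41 FPKM in control, likewise highest in stearic acid.

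The fitted change was largest for col-166, a cuticle collagen gene, and it was also the least even. Its counts were 1, 1 and 1 in sucrose and 24, 1291 and 2850 in stearic acid, so stearic acid library 1 was far below the other stearic acid libraries. In control it was at 0.0218, 0.0267 and 0.0186 FPKM, so the stearic acid libraries alone stood high. Summed counts were 1389-fold lower in sucrose, with an exact 95% counting interval of 475 to 6738 for counting error alone, while the fitted log2 fold change was -10.27 ± 1.93 (-9.20 without stearic acid library 3) and the call was lost with limma-voom and with limma on log2(FPKM + 1). The chemoreceptor gene srr-7 had 0 counts in all sucrose libraries and 59, 59 and 50 counts in stearic acid, which made it at least 18.7-fold lower in sucrose at a floor of 3 counts per library. By the ranking rule given above, the other genes of the 12 largest were cyp-13A6 (another cytochrome P450), T20D4.12 (a secreted-protein domain of unknown function), F35F10.5 (no domain listed) and cld-1 (a CUB-like domain), with log2 fold changes from -4.42 to -4.32. That of F35F10.5 was -4.96 without sucrose library 3.

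**Figure D2:**
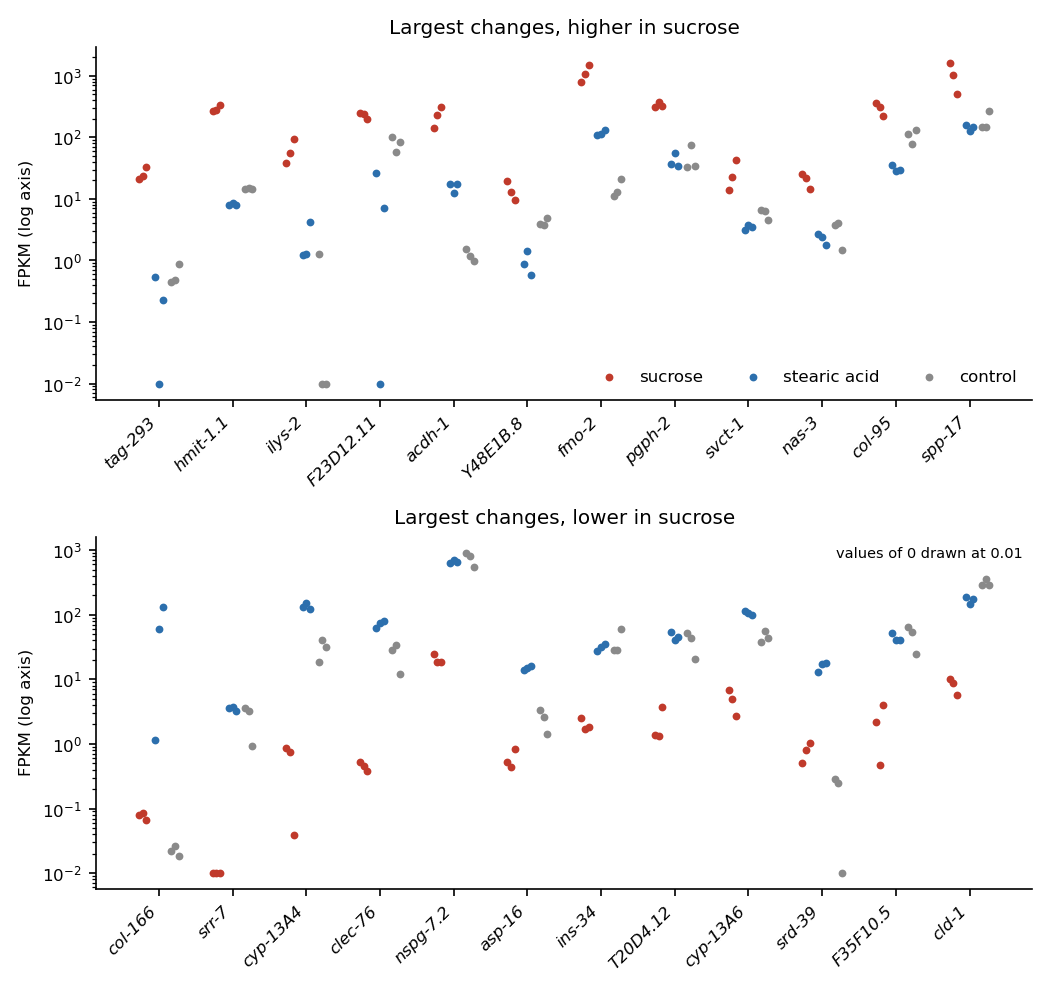
FPKM on a log axis of the 12 genes with the largest changes in each direction, with sucrose, stearic acid and control libraries as red, blue and grey points and values of 0 drawn at 0.01. The rule that picked these genes admitted only named DEGs with at least 50 normalized counts on average in either diet, whose sucrose and stearic acid libraries do not overlap. The 3 stearic acid points of col-166 are far apart.

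Genes for both steps of glycerol production were higher in sucrose. Both genes for glycerol 3-phosphate dehydrogenase, which commits sugar carbon to glycerol, were DEGs. The induced form gpdh-1 had 94.4, 102 and 72.5 FPKM in sucrose and 8.93, 13.99 and 12.6 FPKM in stearic acid (2.81 ± 0.17, edgeR adjusted p = 5.1e-06). The second form, gpdh-2, had 527, 546 and 619 FPKM in sucrose and 269, 253 and 234 FPKM in stearic acid (1.22 ± 0.11). Control libraries were at 16.5, 10.3 and 11.5 FPKM for gpdh-1 and at 274, 237 and 222 FPKM for gpdh-2, within or beside the range of stearic acid. The phosphatase gene pgph-1, a close relative of pgph-2, had 171, 187 and 219.9 FPKM in sucrose and 28.6, 28.99 and 36.5 FPKM in stearic acid (2.71 ± 0.13). In the whole list of 16 genes tied to glycerol and osmotic stress, only hmit-1.1, gpdh-1 and gpdh-2 were DEGs, all higher. That was 18.8% of the list, against 7.92% of all genes, and the list's median log2 fold change was 0.06. Among 10 aquaporins, channels for water and glycerol, aqp-8 had 209.7, 219 and 208 FPKM in sucrose and 64.5, 49.4 and 46.9 FPKM in stearic acid (1.80 ± 0.11). The lower-expressed aqp-5 was higher in sucrose (1.33 ± 0.38) and aqp-3 was lower (-2.102 ± 0.35). DEGs made up 30% of the aquaporins, against 7.92% of all genes. Of the higher aquaporins only 1 was called without sucrose library 2 or 3 or without stearic acid library 1 or 2.

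Genes of stored and dietary sugar moved by smaller amounts. Of 12 trehalose, glycogen and glucosidase genes, 3 were higher in sucrose and none lower, 25% against 7.92% of all genes. The alpha-glucosidase genes aagr-2 and aagr-1, whose enzymes release glucose, were both higher. The level of aagr-2 was 216, 235 and 302 FPKM in sucrose, against 90.7, 87.6 and 102 FPKM in stearic acid (1.47 ± 0.13). For aagr-1 it was 125, 145 and 198 FPKM in sucrose, against 59.7, 60.2 and 61.4 FPKM in stearic acid (1.41 ± 0.16). The trehalase gene tre-3 had 55.9, 59.4 and 80.3 FPKM in sucrose and 28.6, 28.04 and 34.6 FPKM in stearic acid, a log2 fold change of 1.08 ± 0.14, and was not called without sucrose library 3. Of the 10 sugar transporter genes, 40% were DEGs, against 7.92% of all genes. At 2-fold, 3 of the SWEET-type carriers were lower and hmit-1.1 was higher, and at any fold 3 were lower and 5 higher. Of these, swt-7 had 207, 164 and 147 FPKM in sucrose and 458, 409 and 435 FPKM in stearic acid (-1.29 ± 0.12), and swt-1 and swt-6 fell by 1.17 and 1.05. Of the SWEET-type carriers, swt-1 was not called without sucrose library 1, nor swt-6 without sucrose library 2 or stearic acid library 1. None of the 15 glycolysis and gluconeogenesis genes was a DEG, although 14 of them had a positive log2 fold change (median 0.32) and 8 passed the adjusted p without the fold minimum. The same held for 18 citrate cycle genes (17 positive, median 0.23, 8 higher and 1 lower at any fold) and 25 genes of oxidative phosphorylation (24 positive, median 0.25, 10 higher at any fold). Of all 12677 genes tested, 1396 were higher and 1688 lower at any fold.

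The desaturases that act on stearic acid split in direction. FAT-6 and FAT-7 insert the double bond that turns stearic into oleic acid, and FAT-5 places the same bond in palmitic acid. The gene fat-6 had 441, 349 and 318 FPKM in sucrose and 664, 702 and 835 FPKM in stearic acid (-1.003 ± 0.12). For fat-5 the levels were 68.8, 67.7 and 49.01 FPKM in sucrose, 131, 117 and 116 FPKM in stearic acid and 27.6, 23.2 and 13.8 FPKM in control. The scarce fat-7 had 7.03, 4.10 and 1.02 FPKM in sucrose, against 0.763, 0.578 and 0.786 FPKM in stearic acid (2.52 ± 0.62, edgeR adjusted p = 0.015), with sucrose library 3 close to the stearic acid level. All 3 calls were unstable, since fat-6 lost its call in 8, fat-7 in 6 and fat-5 in 4 of 17 alternative analyses, and fat-7 was at 1.90 without sucrose library 1. The losses included fat-6 without sucrose library 2 or 3 or stearic acid library 3, fat-7 without stearic acid library 2 or 3, and fat-5 without sucrose library 3 or stearic acid library 1. Close paralogs such as fat-6 and fat-7 can share reads, and how the counting treated such reads is not given in the sources used here.

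Among 50 genes of fatty acid activation and oxidation, 2 were higher and 2 lower in sucrose, a share of 8%, against 7.92% of all genes. At any fold 19 were higher and 4 lower, with 36 of 50 positive and a median of 0.19. Of all 12677 genes tested, 1396 were higher and 1688 lower at any fold. The DEGs were acdh-1 and ech-7 (higher), and ech-9 and cpt-5 (lower), the last a carnitine acyltransferase gene. The gene ech-7 was not called without sucrose library 3 or stearic acid library 2. The enoyl-CoA hydratase gene ech-9 had 5.66, 4.88 and 7.36 FPKM in sucrose, 34.6, 27.1 and 31.2 FPKM in stearic acid and 9.60, 10.98 and 7.96 FPKM in control. The acyl-CoA synthetase gene acs-2 had 673, 807 and 977 FPKM in sucrose and 744, 762 and 806 FPKM in stearic acid, and its log2 fold change of 0.04 ± 0.14 did not pass the test (edgeR adjusted p = 0.86). Both diets were above the control level of 171, 150.1 and 252 FPKM. Besides acdh-1, the 9 propionate genes held 1 more DEG, hphd-1, a dehydrogenase of the shunt, with 164, 208 and 282 FPKM in sucrose and 59.2, 64.9 and 60.4 FPKM in stearic acid. The gene cth-1, for a cystathionine lyase that makes cysteine, had 85.8, 123 and 91.4 FPKM in sucrose and 22.4, 18.3 and 18.2 FPKM in stearic acid (2.42 ± 0.14).

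Fat carriers and lipases moved in both directions. The fatty acid-binding protein gene lbp-6 had 1391, 1351 and 1417 FPKM in sucrose and 678, 561 and 637 FPKM in stearic acid (1.19 ± 0.11). The lysosomal lipase gene lipl-1 was lower, with 16.8, 22.8 and 48.1 FPKM in sucrose, 139, 156 and 153 FPKM in stearic acid and 43.9, 45.7 and 39.8 FPKM in control, and lipl-8 had a log2 fold change of -2.35 ± 0.45, or -3.10 without sucrose library 2. Of the 5 yolk protein genes tested, vit-1, vit-4 and vit-5 were higher in sucrose, 60% against 7.92% of all genes. The most abundant of these, vit-5, had 287, 233 and 151 FPKM in sucrose and 90.3, 86.9 and 73.7 FPKM in stearic acid (1.35 ± 0.19). The gene vit-4 had 72.3, 37.1 and 4.82 FPKM in sucrose and 4.57, 4.75 and 2.59 FPKM in stearic acid, so sucrose library 3 was near the stearic acid level. The call of vit-4 was lost without stearic acid library 2 or 3, and its log2 fold change of 3.21 ± 0.73 was 2.38 without sucrose library 1. The gene vit-1 had 42.1, 26.2 and 8.33 FPKM in sucrose and 3.72, 4.34 and 3.03 FPKM in stearic acid. The gene vit-2, with 798, 846 and 989.8 FPKM in sucrose and 727, 764 and 609 FPKM in stearic acid, did not pass the test (edgeR adjusted p = 0.2).

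Cuticle collagens held more DEGs than any other gene list examined here, and in both directions. Of 144 tested, 34 were higher and 20 lower in sucrose, 37.5% against 7.92% of all genes, and the median log2 fold change was 0.50 with 106 of 144 positive. The higher set had a median change of 1.31 and included collagens named for body shape. The gene rol-6, whose mutants roll, had 195, 188 and 203 FPKM in sucrose and 76.1, 57.2 and 69.0 FPKM in stearic acid (1.40 ± 0.10). The gene sqt-1 had 251, 273 and 285 FPKM in sucrose and 105, 87.5 and 108 FPKM in stearic acid. The dumpy genes dpy-4, dpy-5 and dpy-13 were higher by 1.15, 1.14 and 1.12, and lon-3 and sqt-2 by 1.28 and 1.27, each with an SE of 0.13 or less. Among the numbered collagens, col-95 had 356, 315 and 219 FPKM in sucrose and 35.8, 28.6 and 29.8 FPKM in stearic acid (3.07 ± 0.16). The gene col-119 had 1330.3, 1008 and 829.9 FPKM in sucrose and 384, 342 and 346 FPKM in stearic acid.

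The lower set had a median change of -2.2. At any fold 75 collagens were higher and 26 lower, against 1396 higher and 1688 lower of all 12677 genes tested. The abundant col-36 had 100.2, 315 and 151 FPKM in sucrose, against 907, 762 and 886 FPKM in stearic acid and 2553, 1885 and 1006 FPKM in control. Its log2 fold change of -2.204 ± 0.35 was -2.79 without sucrose library 2. In col-102 the levels were 30.1, 93.1 and 59.6 FPKM in sucrose, 308, 246 and 272 FPKM in stearic acid and 842, 611 and 292 FPKM in control (-2.36 ± 0.33). In col-72 they were 5.84, 18.4 and 12.05 FPKM in sucrose, 83.9, 57.8 and 63.6 FPKM in stearic acid and 158, 151 and 50.3 FPKM in control. Sucrose library 2 was the highest of the sucrose libraries in 16 of the 20 lower collagens and sucrose library 1 the lowest in 19. In the 34 higher collagens, sucrose library 1 was the highest in 28 and sucrose library 3 the lowest in 27. The control mean lay above both diets in 19 of the 20 lower collagens and between the diets in 23 of the 34 higher ones. Leaving out each library in turn gave 30 to 42 higher and 20 to 22 lower collagens.

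**Figure D3:**
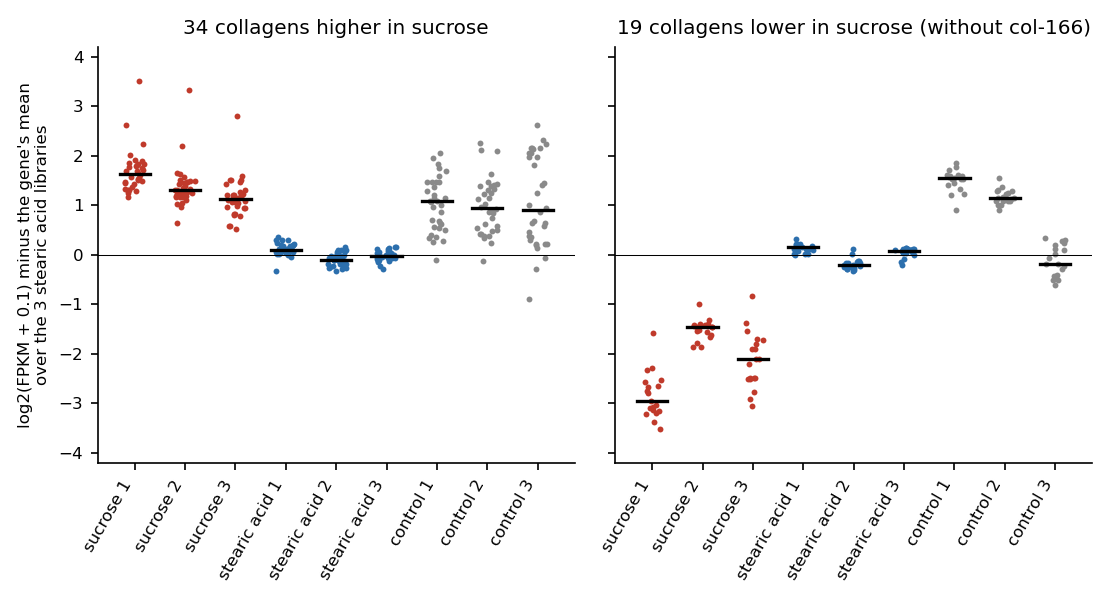
Log2(FPKM + 0.1) of each called collagen minus its mean over the stearic acid libraries, by library, with sucrose in red, stearic acid in blue, control in grey and medians as bars (col-166 is left out of the lower set). Medians of the lower set are -2.94, -1.46 and -2.1 in the sucrose libraries and 1.55, 1.16 and -0.17 in the control libraries, so control library 3 lies below the other controls.

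The hedgehog-related families, secreted proteins of the epidermis, included a block that moved like the lower collagens. Of 43 tested, 11 were lower and 1 higher in sucrose, 27.9% against 7.92% of all genes. At any fold 15 were higher and 11 lower, and the list's median was 0.42 with 28 positive. Of all 12677 genes tested, 1396 were higher and 1688 lower at any fold. The ground-like gene grl-20 had 63.6, 196 and 111 FPKM in sucrose, 549, 588 and 626 FPKM in stearic acid and 1302, 1067 and 492 FPKM in control. The gene grl-25 had 30.2, 93.2 and 66.5 FPKM in sucrose, 279.6, 229.8 and 259 FPKM in stearic acid and 704, 555 and 208 FPKM in control. The groundhog-type gene grd-7 had 1.69, 3.42 and 2.73 FPKM in sucrose and 12.6, 10.5 and 11.8 FPKM in stearic acid (-2.32 ± 0.20). The warthog-type gene wrt-7 had 0.171, 0.525 and 0.171 FPKM in sucrose and 3.86, 2.997 and 4.52 FPKM in stearic acid, a log2 fold change of -3.77 ± 0.42 that was -4.71 without sucrose library 2. Sucrose library 2 was the highest sucrose library in all 11 lower members, and the control mean was above both diets in all 11. The higher member was grd-6, with 17.6, 17.2 and 18.3 FPKM in sucrose and 7.29, 7.76 and 7.60 FPKM in stearic acid. The count of higher members was 4 without stearic acid library 3, 3 without stearic acid library 1, and 2 without sucrose library 1 or stearic acid library 2. Of 24 patched-related genes, named for the hedgehog receptor, ptr-22 and ptr-8 were lower (5.73, 5.52 and 8.74 FPKM in sucrose and 48.9, 48.2 and 53.9 FPKM in stearic acid for ptr-22), and ptr-8 was not called without sucrose library 1 or 2 or stearic acid library 3. That was 8.33% of the list, near the 7.92% of all genes, and at any fold 9 were higher and 4 lower with a median of 0.16.

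Markers of tissue and stage moved beside these families. The summed FPKM of 9 epidermal markers ran from 1051 to 1073 in sucrose and from 685 to 757 in stearic acid, with 1 DEG (rol-6, itself a collagen). The 19 genes of the passage from L4 to adult, which include the yolk proteins and adult collagen genes, summed to 2442 to 3052 FPKM in sucrose and 1656 to 1969 FPKM in stearic acid. All 19 had a positive change (median 0.50), 4 as DEGs and 13 at any fold. No oocyte or germline marker was a DEG, out of 19 and 14. Of 36 sperm markers tested 1, ssp-28, was lower, but lost its call without any 1 of the 6 libraries, and their sum ran from 1107 to 1179 FPKM in sucrose and from 1166 to 2334 FPKM in stearic acid, where library 3 held the highest value. Body wall muscle markers held no DEG among 11, with sums of 4593 to 4966 FPKM in sucrose and 4391 to 4634 FPKM in stearic acid. No marker was at 0 in all 6 libraries. The part of stage or tissue makeup in the changes of collagens, yolk and hedgehog-related genes was not tested.

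Lectins, CUB-like proteins and infection-response genes held more lower than higher DEGs, as did all genes tested (5.29% lower and 2.63% higher). DEGs made up 30.6% of the lectins and 52.2% of the CUB-like genes, against 7.92% of all genes. Of 111 C-type lectins, carbohydrate-binding proteins many of which respond to bacteria, 26 were lower and 8 higher, though the median was -0.08 with 51 of 111 positive. The abundant clec-47 had 27.04, 35.0 and 51.3 FPKM in sucrose and 758, 623 and 519 FPKM in stearic acid (-3.94 ± 0.26). The gene clec-72 had 62.9, 67.1 and 74.8 FPKM in sucrose and 303, 307 and 332 FPKM in stearic acid. For clec-74 the levels were 1.42, 1.77 and 0.236 FPKM in sucrose, 24.5, 15.5 and 17.8 FPKM in stearic acid and 119.3, 128 and 56.2 FPKM in control, the highest of the groups. In the opposite direction clec-10 had 51.3, 45.9 and 39.0 FPKM in sucrose and 14.04, 10.05 and 12.6 FPKM in stearic acid. The gene clec-266 had 155, 132 and 112 FPKM in sucrose and 47.2, 66.3 and 62.5 FPKM in stearic acid. The control mean was above both diets in 16 of the 26 lower lectins. Of the 46 tested genes with a CUB-like domain, a nematode family of secreted proteins often induced by infection, 21 were lower and 3 higher, with a median of -0.77. Besides cld-1, it included dod-21, with 25.9, 20.2 and 15.6 FPKM in sucrose and 416, 303 and 342 FPKM in stearic acid (-4.06 ± 0.19). The gene dod-24 had 308, 217 and 81.5 FPKM in sucrose and 1127, 970.3 and 1049.5 FPKM in stearic acid. The abundant mbug-1 had 579.8, 499.7 and 316 FPKM in sucrose, 4519, 4079.9 and 5021 FPKM in stearic acid and 4015, 4757 and 2894 FPKM in control. In these genes no sucrose library reached the lowest stearic acid library, which follows largely from picking called genes. The same was true of 21% of all genes tested. The 3 higher members were 1 without sucrose library 3 or stearic acid library 3.

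In the list of 60 immune response genes, 13 were lower and 5 higher in sucrose, 30% against 7.92% of all genes. The infection-response genes irg-4, irg-1 and irg-5 were all lower. Of these, irg-4 had 16.98, 12.2 and 3.41 FPKM in sucrose, 274, 182 and 199 FPKM in stearic acid and 929.6, 1269 and 556 FPKM in control (-4.30 ± 0.41), so control stood above both diets. The gene zip-2, for a transcription factor that drives irg-1 during infection, had 536, 536 and 602 FPKM in sucrose and 1097, 1115 and 1206 FPKM in stearic acid (-1.17 ± 0.10). The 5 higher members were the cathepsin B-like proteases cpr-5 and cpr-8, the thaumatin-like genes thn-1 and thn-2 and the peptide gene fipr-3 (1.98 ± 0.41, and 2.83 without stearic acid library 1). The most abundant, cpr-5, had 826, 744 and 739 FPKM in sucrose, 131, 143 and 132 FPKM in stearic acid and 74.1, 48.4 and 67.3 FPKM in control (2.43 ± 0.08).

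Lysozymes and saposin-like genes divided 7 higher to 6 lower of 36 (36.1%, against 7.92% of all genes), and 8 higher to 11 lower at any fold. The higher ones were ilys-2, ilys-3, ilys-5, lys-4, lys-6, lys-10 and spp-17, of which ilys-3 was not called without sucrose library 3 or stearic acid library 2. Without stearic acid library 3, the log2 fold change of lys-10 was 5.33 in place of 4.48, and that of lys-6 was also over 1.5 times larger as a fold. The gene lys-4 had 251, 287 and 375 FPKM in sucrose and 50.2, 37.5 and 43.5 FPKM in stearic acid (2.86 ± 0.18), against 12.5, 12.3 and 16.2 FPKM in control. Among the lower ones, lys-7 had 904, 984 and 1221 FPKM in sucrose, 2176, 2080.2 and 2462 FPKM in stearic acid and 764, 701 and 601 FPKM in control. The gene lys-2 had 305, 217 and 213 FPKM in sucrose, 783, 634 and 700.4 FPKM in stearic acid and 1005, 1212 and 1195 FPKM in control. So lys-7 was above control in both diets, and lys-2 below control in both. The call of lys-7 was lost without sucrose library 1. The summed FPKM of 10 intestinal markers was 5198 to 5661 in sucrose and 7371 to 8652 in stearic acid. Most of that gap came from the aspartyl protease gene asp-1 (3004, 2615 and 2729.5 FPKM in sucrose, 4619, 5157 and 5535 FPKM in stearic acid), which did not reach 2-fold (-0.99 ± 0.10). The intestinal regulator gene elt-2 had 22.7, 21.9 and 21.6 FPKM in sucrose and 23.2, 20.8 and 18.7 FPKM in stearic acid. The esterase gene ges-1 had 75.4, 87.7 and 104 FPKM in sucrose and 92.2, 88.0 and 102 FPKM in stearic acid. Libraries of the diets overlapped for both genes. The only DEG among the 10, the acid phosphatase gene pho-1, was higher, with 125, 104 and 98.3 FPKM in sucrose and 38.5, 36.3 and 36.1 FPKM in stearic acid (1.596 ± 0.10, edgeR adjusted p = 6.2e-06). At any fold 2 intestinal markers were higher, pho-1 and the filament gene ifb-2 (0.29 ± 0.07), and 2 lower. Among 12 members of the aspartyl protease family, 5 were lower and 1 higher, 50% against 7.92% of all genes. Its member asp-6 had 1349, 1328 and 1420.1 FPKM in sucrose and 2882, 3189 and 3186 FPKM in stearic acid.

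Among enzymes that modify and clear foreign compounds, UDP-glucuronosyltransferases and cytochrome P450s held more lower than higher DEGs. All genes tested leaned the same way, with 5.29% lower and 2.63% higher. Of 55 UDP-glucuronosyltransferases, which attach sugar to a compound, 14 were lower and 3 higher (30.9%, median -0.38). The gene ugt-31 had 21.5, 19.6 and 23.4 FPKM in sucrose, 247, 243 and 259.5 FPKM in stearic acid and 58.5, 76.3 and 73.9 FPKM in control (-3.46 ± 0.10). The gene ugt-20 had 7.07, 6.27 and 4.45 FPKM in sucrose, 66.1, 65.0 and 63.6 FPKM in stearic acid and 20.3, 31.1 and 28.3 FPKM in control. In both, stearic acid stood above control and sucrose below it. The opposite direction was seen in ugt-17, with 31.3, 31.1 and 31.8 FPKM in sucrose and 13.6, 11.5 and 16.2 FPKM in stearic acid. Of 59 genes with a cytochrome P450 (cyp) symbol, whose enzymes oxidize such compounds, 9 were lower and 1 higher, 16.9% against 7.92% of all genes. All 9 lower members had a control mean between the diets. Besides the cyp-13A genes, cyp-14A5 had 53.3, 49.5 and 48.3 FPKM in sucrose and 226, 189 and 231 FPKM in stearic acid (-2.03 ± 0.09). The gene cyp-36A1 had 13.1, 13.1 and 16.2 FPKM in sucrose and 64.6, 67.7 and 81.1 FPKM in stearic acid. The higher member with a cyp symbol was cyp-13A12 (1.09 ± 0.23), which was not called without sucrose library 1 or stearic acid library 2. The higher count of this list was 0 without stearic acid library 2 and 2 without sucrose library 2. Counted by protein domain instead of symbol, 62 tested genes were cytochrome P450s, with 9 lower and 2 higher.

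The 38 glutathione S-transferases, which attach glutathione, had 6 lower and 5 higher members (28.9%, against 7.92% of all genes). This near even split held at any fold (10 and 9, median -0.02). The gene gst-19 had 181, 168 and 297 FPKM in sucrose, 1532, 1412 and 1618 FPKM in stearic acid and 432, 461 and 289 FPKM in control (-2.78 ± 0.21). Without sucrose library 3 the higher members were 2 in place of 5, and without stearic acid library 2 or 3 they were 3. Of 12 P-glycoprotein genes, membrane pumps for foreign compounds, 3 were lower and none higher, 25% against 7.92% of all genes. The gene pgp-5 had 35.3, 41.4 and 35.7 FPKM in sucrose and 254, 245 and 249 FPKM in stearic acid (-2.64 ± 0.10). The oac family of membrane acyltransferases had 10 lower and 2 higher of 32, or 37.5%, against 7.92% of all genes. Its member oac-54 had 211, 244 and 367 FPKM in sucrose, 979, 925 and 983 FPKM in stearic acid and 306, 318 and 219 FPKM in control. The gene oac-31 had 12.6, 11.5 and 14.4 FPKM in sucrose, 78.0, 72.7 and 64.7 FPKM in stearic acid and 18.2, 26.4 and 22.8 FPKM in control. In the 10 lower and 2 higher oac genes, the higher count was 1 without sucrose library 1 or without stearic acid library 1 or 3. Among flavin monooxygenases, fmo-5 was a DEG beside fmo-2 in the list of 5, with 31.2, 31.2 and 83.3 FPKM in sucrose and 22.7, 20.5 and 25.1 FPKM in stearic acid, where sucrose library 3 was far above the other sucrose libraries. It was not called without that library, nor without any 1 of the stearic acid libraries.

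**Figure D4:**
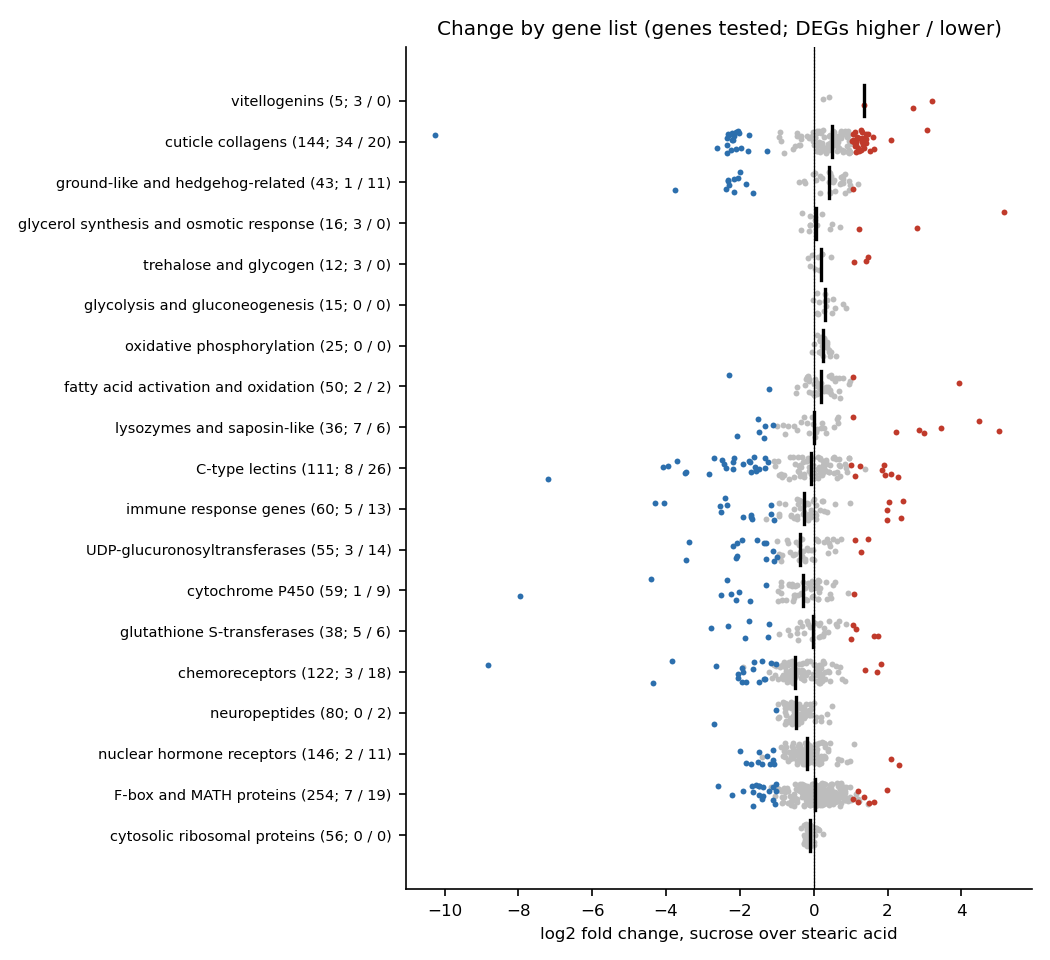
Log2 fold change of sucrose over stearic acid for each tested gene (points) of 19 gene lists, with red for DEGs higher in sucrose, blue for DEGs lower in sucrose, grey for other genes and black bars for the list's median, and srr-7, with 0 counts in sucrose, at its fitted value. Collagens show clusters on both sides of 0. Detoxification and defence lists reach further to the left, except lysozymes and saposin-like genes, which reach further to the right. The lists of glycolysis, oxidative phosphorylation and ribosomal proteins stay close to 0.

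Signalling genes showed few DEGs and a common lean. Of 80 neuropeptide genes, 72 had a negative log2 fold change (median -0.48), and 35 were lower and 1 higher at any fold, but only nlp-76 and nlp-68 reached 2-fold. Of all 12677 genes tested, 1688 were lower and 1396 higher at any fold. The gene nlp-76 had 72.5, 71.8 and 160.0 FPKM in sucrose and 306, 467 and 557 FPKM in stearic acid (-2.71 ± 0.42, and -3.43 without sucrose library 3). The count of lower neuropeptide genes was 1 without sucrose library 1 or stearic acid library 3 and 4 without sucrose library 3 or stearic acid library 2. The 12 neuronal markers moved the same way, with sums of 815 to 960 FPKM in sucrose and 1211 to 1334 FPKM in stearic acid, 11 of 12 negative and 6 lower at any fold. The part of the neuronal share of RNA in the neuropeptide lean was not tested. Chemoreceptors, receptors of sensory neurons, gave 18 lower and 3 higher of 122 tested (17.2%, against 7.92% of all genes), out of 1043 in the table. Most lay under the count filter, and the lower count was 11 without stearic acid library 3 and 28 with no filter.

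Insulin-like peptides, ligands of the DAF-2 receptor, had 2 lower of 19 (ins-34 and ins-35), 10.5% against 7.92% of all genes. The abundant ins-35 had 256, 287 and 355 FPKM in sucrose and 714, 718 and 509 FPKM in stearic acid. The count was 1 without sucrose library 1 or stearic acid library 1. Downstream, skn-1, a transcription factor gene of stress defence, had 103, 102 and 109 FPKM in sucrose and 208, 232 and 240.2 FPKM in stearic acid (-1.11 ± 0.09). The metallothionein gene mtl-1, a common readout of insulin signalling, had 261, 538 and 442 FPKM in sucrose and 1328, 1066 and 1591 FPKM in stearic acid. The TGF-beta ligand gene daf-7, which sensory neurons use to report food, had 18.9, 20.5 and 25.4 FPKM in sucrose, 41.97, 53.0 and 55.9 FPKM in stearic acid and 28.6, 27.7 and 21.6 FPKM in control (-1.22 ± 0.15). The gene daf-9, for a cytochrome P450 that makes the steroid hormone of the dauer decision, had 9.22, 10.5 and 13.1 FPKM in sucrose and 6.13, 4.93 and 5.23 FPKM in stearic acid (1.05 ± 0.15), and its call was lost without sucrose library 3. The body-size ligand gene dbl-1 had 11.8, 12.3 and 15.7 FPKM in sucrose and 14.7, 16.6 and 15.2 FPKM in stearic acid and did not pass the test (edgeR adjusted p = 0.25).

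Nuclear hormone receptors held 11 lower genes and 2 higher ones (nhr-127 and nhr-271) of 146, or 8.9%, near the 7.92% of all genes, and the higher count was 4 without sucrose library 3 or stearic acid library 1. Of 19 chaperone genes, the small heat-shock genes hsp-16.2, hsp-16.41 and hsp-12.3 were lower, 15.8% against 7.92% of all genes. The gene hsp-16.41 had 225, 133 and 741 FPKM in sucrose and 972, 1509.6 and 2121 FPKM in stearic acid, with sucrose library 3 several times the other sucrose libraries. Its log2 fold change was -1.90 ± 0.52, and -2.95 without that library. The list had 8 lower members without sucrose library 3 and 1 without stearic acid library 2 or 3, and hsp-16.2 lost its call in 8 of 17 alternatives. The F-box families were split by subfamily, with 17 lower and 1 higher of 113 fbxa genes, against 0 lower and 6 higher of 55 fbxb genes (medians -0.18 and 0.62). Levels in both were low, with 1.49, 2.08 and 1.501 FPKM in sucrose and 9.93, 10.2 and 10.5 FPKM in stearic acid for fbxa-50. For fbxb-7 the levels were 4.83, 5.92 and 4.99 FPKM in sucrose and 3.18, 2.87 and 1.36 FPKM in stearic acid, and its call was lost without stearic acid library 3. Over all 254 F-box and MATH genes, 10.2% were DEGs, against 7.92% of all genes. The 7 higher were 12 without sucrose library 3, 4 without sucrose library 2 and 3 without stearic acid library 3. No DEG was found among 56 ribosomal protein genes (median -0.11, 3 lower at any fold) or 23 proteasome genes (median 0.12, none at any fold in edgeR).

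The share of DEGs differed by chromosome, which is given as a description with no test. Of the 12046 tested genes with a place in the WBcel235 assembly, chromosome V held 2557, of which 98 (3.83%) were higher and 295 (11.5%) lower in sucrose. On the other chromosomes the share of lower genes ran from 2.15% on chromosome I to 5.04% on chromosome IV. Neighbouring tested genes were called in the same direction in 32 runs of at least 3 genes, of which 31 were lower and 1 higher, and 18 runs lay on chromosome V. The longest was a run of 11 lower genes on chromosome V, from 7252244 to 7295370, between gtnt-3 and gtnt-21. It held 5 genes of the gtnt family, which carry a glycosyltransferase family 92 domain, and C13A2.12, the most abundant of the run, had 60.3, 157 and 113.9 FPKM in sucrose, 493, 338 and 472 FPKM in stearic acid and 1446, 1257 and 408 FPKM in control. Control libraries 1 and 2 were above the stearic acid level in all 11 except gtnt-4, where control library 1 lay within it, and sucrose library 2 was the highest of the sucrose libraries in all 11.

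**Figure D5:**
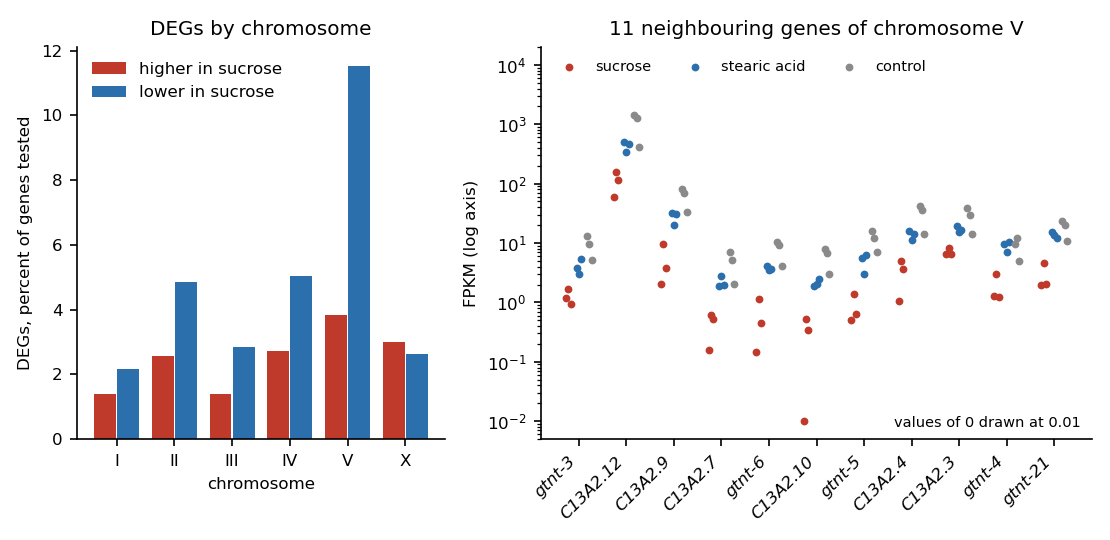
Left, percent of tested genes on each chromosome that were DEGs higher (red) or lower (blue) in sucrose. Right, FPKM on a log axis of the 11 neighbouring lower genes of chromosome V in sucrose (red), stearic acid (blue) and control (grey) libraries, with 0 drawn at 0.01, where chromosome V stands out at 11.5% lower and the sucrose points lie lowest in each gene.

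The gtnt family as a whole had 13 lower and 5 higher of 37 tested genes (48.6%, against 7.92% of all genes), at low levels in most members. Methyltransferases with an FkbM domain, several of which sit beside gtnt genes, had 10 lower and 5 higher of 25, or 60%. The only higher run, on chromosome IV from 9294899 to 9307165, joined F49C12.1, F49C12.2, F49C12.3, F49C12.4 and gtnt-30. There F49C12.2, with an FkbM domain, had 31.8, 36.6 and 29.8 FPKM in sucrose, 11.4, 10.5 and 11.9 FPKM in stearic acid and 1.28, 3.18 and 1.16 FPKM in control, so both diets were above control. Other lower runs were made of paralogs. They included cyp-13A4, cyp-13A5 and cyp-13A6 on chromosome II (9795756 to 9802821), gst-15, gst-12, gst-16 and gst-19 on chromosome II (13611770 to 13627145), and clec-74, clec-75 and clec-76 on chromosome IV (3957005 to 3969193). Genes of such a run are not independent observations, because paralogs can share reads.

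Across all DEGs, the control libraries placed each diet. Of the 334 genes higher in sucrose, the control mean FPKM lay between the diets in 52.4%, below both in 34.7% and above both in 12.9%. Of the 670 genes lower in sucrose, it lay between in 50.9%, above both in 35.8% and below both in 13.3%. Over all genes tested, the shares were 26.2% between, 36.5% below both and 37.3% above both. DEGs were called for a gap of at least 2-fold between the diets, which leaves more room for a control mean between them. The shares over DEGs and over all genes are therefore not like for like. Genes such as acdh-1, fmo-2 and lys-4 were in the group with control below both diets, and irg-4, clec-74 and the lower collagens except col-166 had control above both. These placements are descriptions of means without a test, and the control mean of the lower collagens hides that control library 3 lay below the other controls.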

How the data were processed

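Whole-body RNA of the sucrose, stearic acid and control groups was sequenced in 3 libraries each. The authors removed ribosomal, adapter and low-quality reads, mapped the rest with TopHat to the WBcel235 assembly, and deposited fragment counts per gene without normalization. The authors also deposited FPKM values, made with Cufflinks. The counting tool, the strand setting and how multi-mapped reads were counted are not given in the sources used here, so values of close paralogs (cyp-13A, clec, col, ugt, gst, vit and hsp-16 genes, fat-6 and fat-7, pgph-1 and pgph-2) are uncertain. Columns of the authors' own comparisons hold fold changes and FDR values and were not used. Each per-sample column was matched to a sample, leaving 0 unmatched, and no pair of libraries was identical.

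Gene names were rebuilt from the annotation columns of the table and the RefSeq gene table of the same assembly, which named 15253 of 16196 IDs. Counts were filtered with filterByExpr, scaled by TMM and tested with edgeR 4.0.16 in R 4.3.3 (quasi-likelihood test, 3 libraries against 3, no covariate), with p values adjusted over the 12677 genes tested. Fold changes and their SE are on the log2 scale of this fit. FPKM values describe levels only. Only the edgeR fit was tested on simulated counts with known changes. Depth, from 19804102 to 21400063 counted fragments per library, leaves genes of a few counts imprecise.

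Genes were named by a rule: in each direction the 12 DEGs with the largest fitted change, at least 50 normalized counts on average in either diet and no overlap of libraries. To these came up to 4 DEGs of each gene list and 3 of each symbol family of at least 10 tested genes with at least 25% DEGs, and a set of genes of sugar and fat metabolism. Other members named were picked after their values were seen, for their abundance or known role. The members and gene lists were chosen with earlier results of these data known. Of the metabolic set, tps-1, tps-2 and fgt-1 matched no named ID and lbp-8 did not pass the filter. Alternatives were other scalings, DESeq2 1.42.0, limma 3.58.1 (voom, and log2(FPKM + 1) or log2(FPKM + 0.1)), no filter, other thresholds, all 15 libraries, a replicate block and leaving out each library. Promoter motifs were not analysed here.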

Additional observations from a re-analysis of the deposited data

How the results depend on the processing

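Of the 115 named genes that passed the test, 98 stayed past the threshold in all 17 alternatives, 17 lost their call in at least 1, and none changed direction. Besides those given with their genes, bli-5, col-7, dct-1, dct-16, dct-19, gpx-3, hsp-16.41 and mfsd-8.2 lost a call in 1 to 5 alternatives. The count of 1004 DEGs was 1002 with DESeq2's size factors, 999 with upper-quartile scaling, 973 with DESeq2, 1014 with limma-voom, 1053 without a filter, 796 and 981 with limma on log2(FPKM + 1) and log2(FPKM + 0.1), 1013 with all 15 libraries and 819 at an adjusted p of 0.01. Without the fold minimum it was 3084, with 1396 higher and 1688 lower in sucrose. Leaving out each library in turn gave 881 to 1128 DEGs, with 289 to 392 higher and 574 to 782 lower. Whether replicate numbers pair the samples cannot be settled with 3 libraries a group. Deviations of same-numbered libraries correlated at 0.02, -0.09 and 0.19, and those of differently numbered libraries at -0.17 to 0.14. With the replicate block there were 995 DEGs, 974 of them shared with the unblocked fit in the same direction, and no named gene changed its call. Depth limits which genes could be tested: 122 of 1043 chemoreceptor genes passed the filter on low counts.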

Other observations

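Several further families held more DEGs than the 7.92% of all genes. Of 50 genes with a DUF19 domain, found in secreted nematode proteins of unknown role, 17 were lower and 4 higher in sucrose. Besides nspg-7.2 and T20D4.12, T20D4.11 had 19.4, 19.1 and 33.0 FPKM in sucrose, 127, 108 and 121 FPKM in stearic acid and 124, 114.4 and 44.2 FPKM in control. The scl family of cysteine-rich secreted proteins was split, with 4 lower and 3 higher of 10 tested genes. The lower scl-12 had 64.2, 88.5 and 126 FPKM in sucrose and 372, 281 and 262 FPKM in stearic acid, and the higher scl-5 had 38.9, 39.8 and 42.7 FPKM in sucrose and 14.8, 14.04 and 14.3 FPKM in stearic acid. Neither gene had overlapping libraries between the diets, which follows largely from picking called genes. Libraries did not overlap in 40.6% of all genes tested. The pals family, several members of which respond to infection by intracellular parasites, had 6 lower and no higher genes of 23, with a median of -0.53, and 10 lower without sucrose library 3. Its most abundant DEG, pals-24, had 96.1, 92.6 and 99.4 FPKM in sucrose and 171, 175.4 and 181 FPKM in stearic acid. The call of pals-24 rests on its counts, and these FPKM values differ by less than 2-fold.

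Smaller sets moved in single members. The steroid dehydrogenase-like gene stdh-3 was lower in sucrose, with 0.382, 0.221 and 0.466 FPKM in sucrose, 2.74, 3.75 and 2.68 FPKM in stearic acid and 0.408, 1.32 and 0.298 FPKM in control. The transthyretin-related gene ttr-22 was the only DEG of 45 in its family, with 29.7, 31.1 and 40.0 FPKM in sucrose and 9.67, 5.71 and 13.6 FPKM in stearic acid. Of 26 antioxidant genes, the glutathione peroxidase gene gpx-5 and the methionine sulphoxide reductase gene msra-1 were lower (-1.26 ± 0.18 and -1.15 ± 0.12). The gene gpx-3 was higher (1.11 ± 0.17), though not without sucrose library 3. The list's share of DEGs was 11.5%, against 7.92% of all genes. Of 38 genes of moulting, the astacin protease genes nas-24 and nas-28 were lower (-1.94 ± 0.33 and -1.504 ± 0.19) and nas-3 and bli-5 higher, 10.5% against 7.92% of all genes. At any fold 15 moulting genes were higher and 4 lower, against 1396 higher and 1688 lower of all 12677 genes tested. The genes named in these paragraphs were picked after their values were seen.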
